A study of Mus musculus with 9 samples.

Results

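Transcripts of Polycomb repressive complex 2 (PRC2) were examined in YAMC cells, described as a mouse intestinal epithelial line. The labels give its tissue as small intestine, and the line is otherwise known as one from the colon of young adult mice that carry a temperature-sensitive large T antigen. The 10 genes Ezh1, Ezh2, Eed, Suz12, Rbbp4, Jarid2, Aebp2, Mtf2, Phf1 and Phf19 were chosen by name as core and accessory subunits. All 10 were found among the 28059 genes of the table, and all 10 were among the 12568 genes tested. The libraries were Cdk8 knockout clone 1 (genotype Cdk8 -/-, 3 libraries), Cdk8 knockout clone 19 (genotype Cdk8 -/-, 3 libraries) and the parental line (genotype wildtype, 3 libraries). Cdk8, which encodes a kinase that associates with Mediator, was knocked out with CRISPR, and all cells grew at 32 °C and were taken in logarithmic growth. Each knockout line is 1 clone, and clones that kept Cdk8 are not analysed here. Loss of Cdk8 and the picking of a clone therefore cannot be told apart.

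PRC2 places methyl groups on lysine 27 of histone H3, the mark H3K27me3, and keeps developmental genes silent. EZH2 and EZH1 are alternative catalytic subunits, EZH2 being the main one in dividing cells and EZH1 the more abundant one in many resting tissues. EED binds the finished mark and stimulates the enzyme, SUZ12 is the scaffold, and RBBP4 is a histone-binding chaperone. On this core sits either 1 of the Polycomb-like proteins (MTF2, PHF1 and PHF19), which bind DNA and methylated histones, or the pair JARID2 and AEBP2. In the intestinal epithelium PRC2 is known for supporting progenitor growth and for restraining secretory differentiation.

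Expression was given as RPKM, that is reads scaled for gene length and for depth, so levels can be set beside each other between genes. Differences were tested on log2(RPKM + 0.5) with limma. Calls required a Benjamini-Hochberg p below 0.05, adjusted over all tested genes. The depth estimated from the smallest steps in the table was 22.9 to 43.7 megareads per library. The p-values measure the spread between these libraries, which may be technical, since the labels do not say that they were separate cultures. Log2 values of all tested genes correlated at 0.997 to 0.998 within groups and 0.963 to 0.993 between groups, a description across genes. Cdk8 stood at 10.3, 11.1 and 11.6 RPKM in clone 1, 10.5, 10.3 and 10.3 RPKM in clone 19, against 17.5, 17.7 and 17.5 RPKM in the parental libraries. The RNA was lower in both clones and still present (-0.66 and -0.74 on the log2 scale, with adjusted p = 7.6e-08 and 3.5e-08 by limma). Of 18 epithelial markers, Cdx2 was at 0 in all groups and Epcam averaged 0.0934, 0.161 and 0.0212 RPKM in clone 1, clone 19 and parental cells, while Krt18 averaged 614, 581 and 392 RPKM. The summed epithelial list ran from 1050 to 1100 RPKM in clone 1, was 1040 RPKM in clone 19 and ran from 657 to 676 RPKM in parental cells. Most of that sum came from 3 keratins, Krt18, Krt8 (224, 206 and 130 RPKM) and Krt19 (174, 183 and 101 RPKM). Of the 18 markers only 7 were tested, with 6 called higher in clone 1, 7 in clone 19 and none lower. Beside the calls of each marker list, 39.8% of all tested genes were called higher and 32.6% lower in clone 1. In clone 19 these shares were 36.7% and 32.3%. The sum of 8 mesothelial markers ran from 1890 to 1940 RPKM in clone 1, 1970 to 1980 RPKM in clone 19 and was 1070 RPKM in parental cells. Most of that sum came from Upk1b (645, 703 and 363 RPKM) and Upk3b (666, 655 and 355 RPKM), as means in the same order of groups. Of the 8 mesothelial markers, 6 were called higher and 2, Krt7 and Msln, lower in each clone. The sum of 14 mesenchymal markers ran from 2440 to 2480 RPKM in clone 1 and 2120 to 2200 RPKM in clone 19. In parental cells it ran from 2410 to 2470 RPKM, above the mesothelial sum. Of these 14, 7 were called higher and 7 lower in clone 1, and 5 and 8 in clone 19. Of 10 immune and endothelial markers 2 were tested, and the 1 called (Kdr) was lower in each clone. Kdr passed the filter of 1 RPKM in 3 libraries through the parental line alone, which favoured that direction. The intestinal epithelial identity of the line is taken from its description. Cdx2 and Epcam at or near 0, beside high mesenchymal and mesothelial markers, do not bear it out. In bulk RNA, fewer cells with a transcript and less of it per cell cannot be told apart. The part of these marker shifts in the PRC2 differences was not tested.

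Rbbp4, Suz12 and Ezh2 of the core were the most abundant, Ezh1 was the low member of the core, and Aebp2 was the most abundant accessory gene. In the parental line the order of mean levels was Rbbp4 (67.3 RPKM), Suz12 (41.3), Ezh2 (38.5), Aebp2 (24.1), Eed (23.4), Mtf2 (9.59), Phf1 (7.56), Ezh1 (3.54), Phf19 (2.13) and Jarid2 (1.71). Of neighbours in that order, the libraries of Aebp2 and Eed overlapped and no others did. In both clones Phf19 was the lowest of the 10 genes instead of Jarid2, and the libraries of Suz12 and Ezh2 overlapped. The estimated reads behind a value depend on gene models that need not be those of the authors, and in the library with fewest they ran from 48 for Phf19 to 12403 for Rbbp4. Values of Phf19 were the least precise of the set by that measure.

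**Figure D1:**
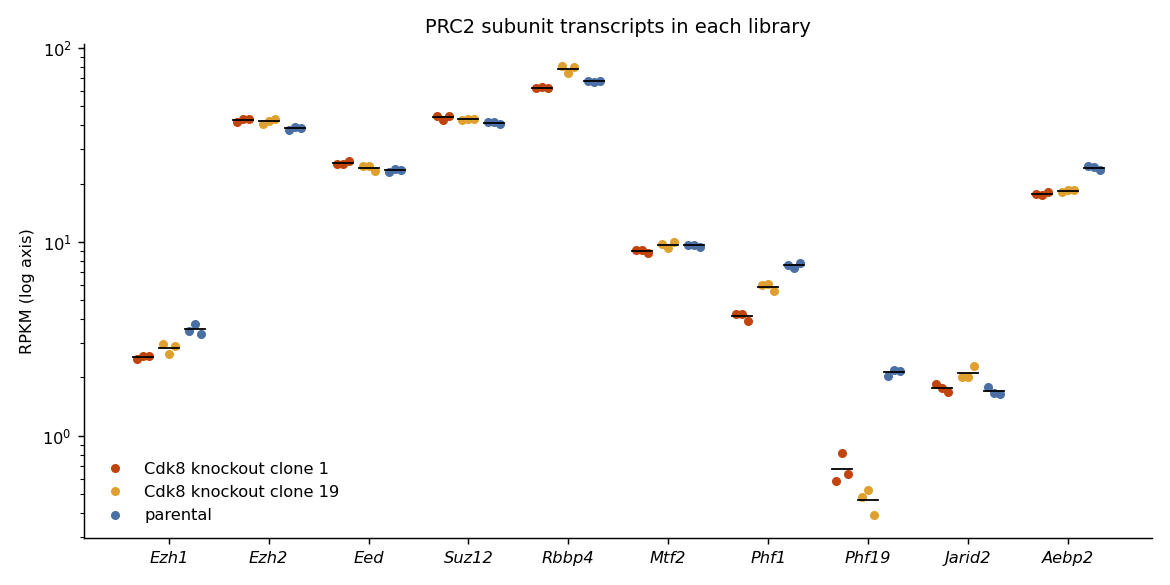
RPKM of the 10 PRC2 genes on a log axis, with 1 point per library for clone 1, clone 19 and the parental line and a bar at each group mean (n = 3). Phf19 lies between 0.388 and 0.810 RPKM in the clones, against 2.04 to 2.18 RPKM in the parental libraries, while the points of Ezh2, Eed, Suz12 and Mtf2 lie close together.

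The 2 catalytic subunits went in opposite directions in both clones: Ezh1 fell and Ezh2 rose slightly. Ezh1 measured 2.49, 2.58 and 2.58 RPKM in clone 1, 2.99, 2.64 and 2.92 RPKM in clone 19, against 3.48, 3.79 and 3.36 RPKM in the parental line. Every library of either clone was below every parental library. The Ezh1 mean was 72.0% of the parental mean in clone 1 (log2 fold change -0.40 ± 0.06, SE, adjusted p = 1.0e-04, limma) and 80.5% in clone 19 (-0.27 ± 0.06, adjusted p = 0.0020, limma). Ezh2 measured 41.7, 43.3 and 43.2 RPKM in clone 1, 40.7, 41.9 and 43.0 RPKM in clone 19, against 37.7, 39.0 and 38.9 RPKM in the parental line. Again no clone library overlapped a parental one, but the step was small. Ezh2 rose by 0.15 ± 0.03 on the log2 scale in clone 1 (adjusted p = 5.3e-04, limma) and by 0.12 ± 0.03 in clone 19 (adjusted p = 0.0027, limma). The median absolute log2 fold change of all tested genes was 0.22 in clone 1 and 0.20 in clone 19, so Ezh2 moved less than a typical gene. With quantile normalization the Ezh2 differences were 0.0859 and 0.0703, both still called (adjusted p = 0.011 and 0.030, limma).

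The balance between the catalytic transcripts was therefore shifted further towards Ezh2. The linear ratio of Ezh2 to Ezh1 RPKM was 16.7 ± 0.0250 in clone 1 (SD, n = 3), 14.7 ± 1.12 in clone 19 and 10.9 ± 0.648 in the parental line. Ezh1 made up 5.64% ± 0.00796 of the summed catalytic RPKM in clone 1, 6.38% ± 0.455 in clone 19 and 8.42% ± 0.455 in the parental line. On the log2(RPKM + 0.5) scale the ratio was higher by 0.55 in clone 1 and 0.39 in clone 19, with no overlap of libraries in either comparison. The exact two-sided permutation test gave p = 0.10 for each clone, which is the smallest value that 3 against 3 libraries allow. The summed level of both genes was 45.3 ± 0.958 RPKM in clone 1, 44.7 ± 1.13 RPKM in clone 19 and 42.1 ± 0.822 RPKM in the parental line.

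The scaffold and the mark-binding subunit changed little. Suz12 measured 44.7, 42.4 and 44.5 RPKM in clone 1, 42.6, 42.9 and 43.0 RPKM in clone 19, against 41.5, 41.7 and 40.6 RPKM in the parental line. Suz12 was higher in clone 1 by 0.09 ± 0.02 (adjusted p = 0.0089, limma), and lost this call with median-ratio scaling (0.05, adjusted p = 0.084) or quantile normalization (0.03, adjusted p = 0.33). In clone 19 its difference was 0.05 with a 95% interval of -0.00 to 0.11 (adjusted p = 0.080, limma), and without clone 1 replicate 2 it was called (adjusted p = 0.041). Eed measured 25.2, 25.1 and 26.2 RPKM in clone 1, 24.5, 24.5 and 23.3 RPKM in clone 19, against 23.0, 23.7 and 23.4 RPKM in the parental line. Only the clone 1 libraries lay clear of the parental ones. Eed rose in clone 1 (0.12 ± 0.03, adjusted p = 0.0031, limma), while in clone 19 its difference was 0.04 with an interval of -0.02 to 0.11 (adjusted p = 0.22, limma).

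Rbbp4, the histone chaperone of the core, was the 1 member called in opposite directions in the clones. Its values were 61.9, 63.3 and 62.4 RPKM in clone 1, 80.4, 74.4 and 79.6 RPKM in clone 19, against 67.9, 66.6 and 67.4 RPKM in the parental line, so the 3 groups did not overlap. The log2 fold change of Rbbp4 was -0.10 ± 0.03 in clone 1 (adjusted p = 0.0057, limma). In clone 19 it was 0.21 ± 0.03 (adjusted p = 4.3e-05, limma). With quantile normalization the values were -0.196 and 0.129, both still called. The clone 19 minus clone 1 difference was 0.32 ± 0.03 (adjusted p = 1.3e-05, limma). Rbbp7, which encodes the close relative that can take the place of RBBP4, averaged 125 ± 1.82 RPKM in clone 1, 127 ± 1.63 RPKM in clone 19 and 131 ± 2.28 RPKM in the parental line. Its log2 fold change was called in clone 1 at -0.07 ± 0.02 (adjusted p = 0.0090, limma). The clone 19 value of -0.05 was not called (adjusted p = 0.060, limma).

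The Polycomb-like gene Phf19 had the largest change of the 10 genes in both clones, while Mtf2 of the same family had the smallest in clone 19. Phf19 measured 0.586, 0.810 and 0.637 RPKM in clone 1, 0.482, 0.528 and 0.388 RPKM in clone 19, against 2.04, 2.18 and 2.16 RPKM in the parental line. The highest clone library was thus far below the lowest parental library. The Phf19 mean was 31.8% of the parental mean in clone 1 and 21.9% in clone 19. On the log2(RPKM + 0.5) scale, which understates a change at such low levels, it fell by 1.16 in clone 1 (SE 0.09, adjusted p = 5.3e-07, limma) and by 1.45 in clone 19 (SE 0.09, adjusted p = 1.0e-07, limma). Phf19 was the only member past 2-fold in either clone, where 2.67% of tested genes were called at least 2-fold lower in clone 1 and 2.32% in clone 19. It passed the filter of 1 RPKM in 3 libraries through the parental line alone, so its place among tested genes already favoured a difference. Without a filter it was still called in both clones (adjusted p = 6.0e-06 and 1.7e-06, limma).

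Phf1 fell more in clone 1 than in clone 19. It measured 4.23, 4.27 and 3.89 RPKM in clone 1, 5.99, 6.03 and 5.58 RPKM in clone 19, against 7.59, 7.32 and 7.77 RPKM in the parental line. The groups formed 3 separate steps. Its log2 fold change was -0.80 ± 0.05 in clone 1 (adjusted p = 7.9e-08, limma) and -0.34 ± 0.05 in clone 19 (adjusted p = 9.0e-05, limma), with a clone 19 minus clone 1 difference of 0.46 ± 0.05 (adjusted p = 4.7e-05, limma). Mtf2 differed least of the family: it measured 9.13, 9.05 and 8.75 RPKM in clone 1, 9.74, 9.34 and 10 RPKM in clone 19, against 9.69, 9.66 and 9.43 RPKM in the parental line. In clone 1 its log2 fold change of -0.09 ± 0.04 was called (adjusted p = 0.041, limma). Its adjusted p no longer passed with clone 1 replicate 2 (0.061), clone 1 replicate 3 (0.13), clone 19 replicate 1 (0.051), parental replicate 1 (0.11), parental replicate 2 (0.098) or parental replicate 3 (0.052) left out. In clone 19 the Mtf2 difference was 0.01 with an interval of -0.07 to 0.09 (adjusted p = 0.74, limma).

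Since these proteins compete for 1 place on the core, their shares were computed in each library. The summed Polycomb-like level was 13.8 ± 0.454 RPKM in clone 1 (SD, n = 3), 16.0 ± 0.163 RPKM in clone 19 and 19.3 ± 0.105 RPKM in the parental line. Mtf2 made up 65.1% ± 0.977 of it in clone 1, 60.5% ± 1.99 in clone 19 and 49.8% ± 0.924 in the parental line. Phf1 made up 30% ± 0.579 in clone 1, 36.6% ± 1.54 in clone 19 and 39.2% ± 0.970 in the parental line. The Phf19 share was 4.91% ± 0.770 in clone 1, 2.91% ± 0.451 in clone 19 and 11.0% ± 0.446 in the parental line. No clone library overlapped a parental one in the sum or in any share, and each exact two-sided permutation test gave p = 0.10, the smallest possible. Set against the scaffold, the summed Polycomb-like level was 0.315 ± 0.0177 of Suz12 in clone 1, 0.374 ± 0.00554 in clone 19 and 0.467 ± 0.00880 in the parental line.

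**Figure D2:**
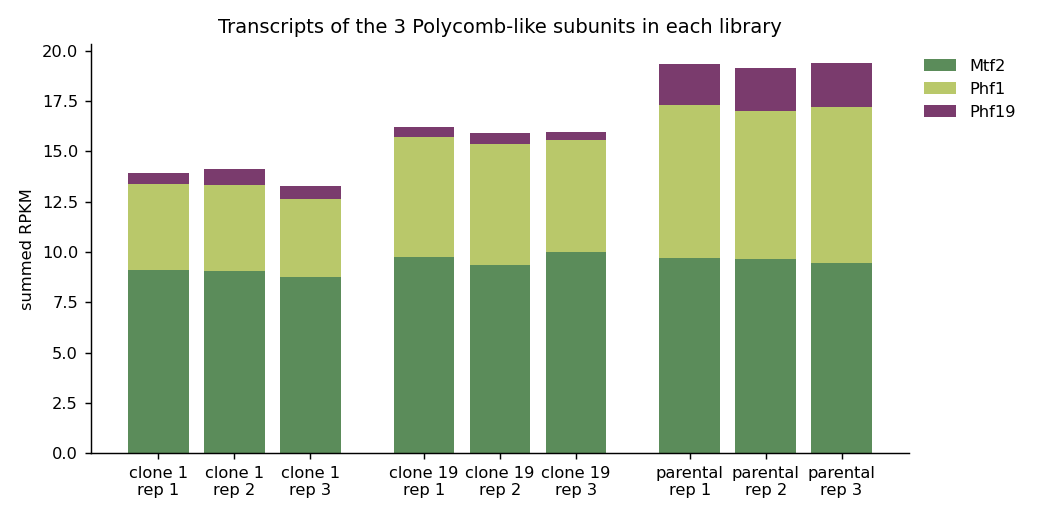
Summed RPKM of Mtf2, Phf1 and Phf19, stacked, in each of the 9 libraries, from clone 1 to clone 19 to the parental line. The Mtf2 part is nearly level at 8.75 to 10 RPKM, while the Phf1 and Phf19 parts are smaller in all clone libraries than in the parental ones.

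EZH2 is a textbook target of E2F factors, and the promoters of the members were searched for 4 E2F words, TTTGGCGC, TTTCGCGC, TTTCCCGC and TTTGCCGC, on both strands. The windows run from 250 bases before to 50 bases after a start and come from RefSeq (GRCm38.p6), where the 10 genes have 14 windows. A word was found in 3 of the 14 windows, those of Ezh2, Suz12 and Phf19, against 4.22% of 11460 windows of tested genes and 2.26% of 32851 windows in all. The 3 windows are shown because the fold changes of these genes range from a small rise to the largest fall of the complex. Capitals mark the word, which in Phf19 stands on the other strand and begins 208 bases before the start. In Suz12 it begins 219 bases before the start and in Ezh2 3 bases past it.
Ezh2 (chr6:47594981-47595280, - strand): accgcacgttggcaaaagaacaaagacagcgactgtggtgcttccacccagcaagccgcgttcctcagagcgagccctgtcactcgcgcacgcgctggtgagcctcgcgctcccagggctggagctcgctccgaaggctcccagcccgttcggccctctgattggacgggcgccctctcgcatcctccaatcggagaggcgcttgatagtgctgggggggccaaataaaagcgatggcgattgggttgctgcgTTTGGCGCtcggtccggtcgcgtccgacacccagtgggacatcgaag
Suz12 (chr11:79992856-79993155, + strand): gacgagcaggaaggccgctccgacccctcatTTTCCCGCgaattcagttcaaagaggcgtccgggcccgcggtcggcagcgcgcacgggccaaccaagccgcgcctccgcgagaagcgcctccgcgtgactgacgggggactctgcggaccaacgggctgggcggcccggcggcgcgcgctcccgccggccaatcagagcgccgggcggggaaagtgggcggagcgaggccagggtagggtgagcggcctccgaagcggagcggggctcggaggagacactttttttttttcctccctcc
Phf19 (chr2:34913927-34914226, - strand): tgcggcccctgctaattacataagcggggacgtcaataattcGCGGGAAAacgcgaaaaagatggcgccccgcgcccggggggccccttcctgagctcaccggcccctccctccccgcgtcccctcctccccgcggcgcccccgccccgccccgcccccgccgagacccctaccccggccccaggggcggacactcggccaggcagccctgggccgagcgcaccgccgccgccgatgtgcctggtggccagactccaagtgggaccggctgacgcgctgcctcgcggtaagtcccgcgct
A matching word is a description of the letters and shows no binding. The pentamer CCAAT, searched on both strands, stood in 8 of the 14 windows, in 7 genes (Aebp2, Eed, Ezh2, Jarid2, Mtf2, Rbbp4 and Suz12), against 38.1% of windows of tested genes. The member windows held a median of 23.5 CpG dinucleotides (2 to 41), against 21.0 for tested genes.

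The other accessory pair was lower as a sum, through Aebp2. Aebp2, whose protein stabilises the complex and binds DNA, measured 17.6, 17.5 and 18.1 RPKM in clone 1, 18.0, 18.5 and 18.5 RPKM in clone 19, against 24.5, 24.3 and 23.6 RPKM in the parental line. The clones lay together and well below the parental line. Aebp2 fell to 73.5% of the parental mean in clone 1 (-0.43 ± 0.03, adjusted p = 9.0e-08, limma) and to 76.1% in clone 19 (-0.38 ± 0.03, adjusted p = 2.7e-07, limma). The clone 19 minus clone 1 difference was 0.05 with a 95% interval of -0.01 to 0.11 (adjusted p = 0.17, limma). Jarid2, whose protein recruits PRC2 to chromatin and stimulates it, measured 1.85, 1.76 and 1.69 RPKM in clone 1, 2.02, 2.0 and 2.30 RPKM in clone 19, against 1.79, 1.67 and 1.65 RPKM in the parental line. Clone 1 overlapped the parental line and clone 19 lay above both. Jarid2 rose in clone 19 (0.24 ± 0.07, adjusted p = 0.0072, limma), and in clone 1 its difference was 0.04 with an interval of -0.10 to 0.19 (adjusted p = 0.59, limma). The sum of both genes was 19.5 ± 0.286 RPKM in clone 1, 20.5 ± 0.393 RPKM in clone 19 and 25.8 ± 0.528 RPKM in the parental line, which was 0.445 ± 0.00886, 0.478 ± 0.00668 and 0.625 ± 0.00644 of Suz12.

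In counts, 3 members rose (Ezh2, Eed and Suz12), 6 fell (Ezh1, Rbbp4, Mtf2, Phf1, Phf19 and Aebp2) and 1 did not pass in clone 1. Among all tested genes 39.8% were called higher and 32.6% lower in clone 1, 72.4% in all. In clone 19, 3 rose (Ezh2, Rbbp4 and Jarid2), 4 fell (Ezh1, Phf1, Phf19 and Aebp2) and 3 did not pass, where 36.7% of tested genes were called higher and 32.3% lower, 69.0% in all. The members' median log2 fold change was -0.10 in clone 1 and 0.03 in clone 19, against 0.03 and 0.02 for all tested genes. Calls in the same direction in both clones numbered 1 higher (Ezh2) and 4 lower (Ezh1, Aebp2, Phf1 and Phf19). Of all tested genes 30.7% were called higher and 25.8% lower in both. The comparisons share the parental libraries. Libraries did not overlap for 9 of the 10 members in clone 1 and 8 in clone 19, where 75.1% and 73.5% of tested genes did not.

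**Figure D3:**
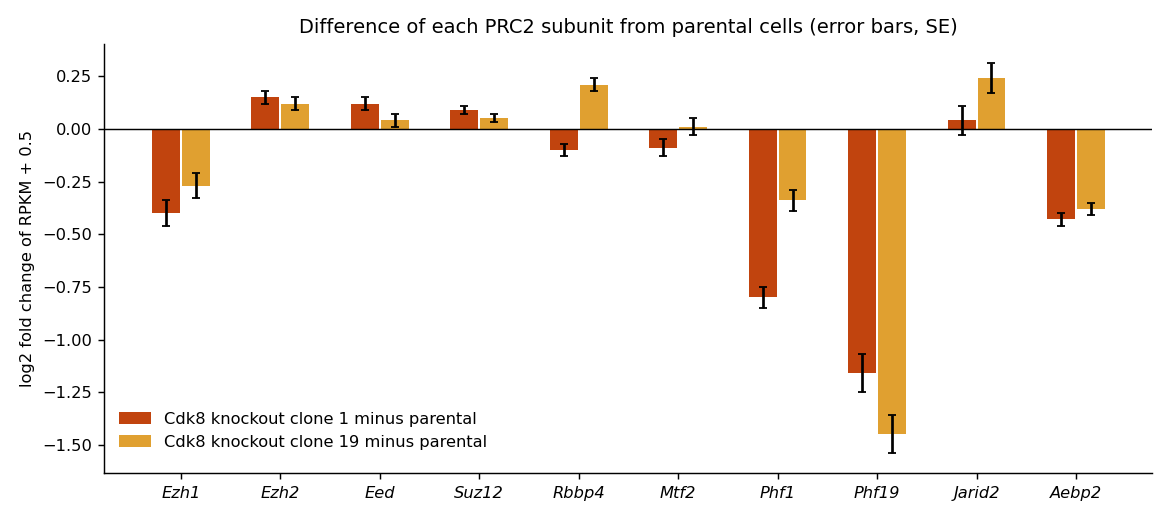
Log2 fold change of RPKM + 0.5 against the parental line for each PRC2 gene in clone 1 and clone 19, with error bars of 1 SE from limma (n = 3 against 3). Phf19 (-1.16 and -1.45), Phf1 (-0.80 and -0.34), Aebp2 (-0.43 and -0.38) and Ezh1 (-0.40 and -0.27) lie below 0 in both clones, and Rbbp4 lies on opposite sides.

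Between the clones, 4 members were called higher in clone 19 (Rbbp4, Jarid2, Mtf2 and Phf1) and 2 lower (Eed and Phf19), where 18.5% of tested genes were called higher and 24.5% lower. No member reached a 2-fold fall, as did 0.0159% of tested genes, and the libraries of 7 of the 10 members did not overlap, against 51.5% of tested genes. Rbbp4 and Phf1 were called in all 20 alternatives run, with Phf1 at 0.261 once neighbouring genes were subtracted. The other 4 calls depended on single libraries and on processing choices. With only the groups compared in the fit, the adjusted p by limma was 0.084 for Eed, 0.055 for Jarid2, 0.073 for Mtf2 and 0.061 for Phf19. Quantile normalization also ended the calls of Eed (0.14) and Jarid2 (0.068), and a replicate block those of Eed, Jarid2 and Mtf2. Eed differed by -0.08 (adjusted p = 0.049, limma), and leaving out any 1 of the 9 libraries ended that call (adjusted p = 0.052 to 0.18). Jarid2 differed by 0.20 (adjusted p = 0.031, limma), and with clone 1 replicate 2, clone 1 replicate 3 or clone 19 replicate 3 left out the adjusted p was 0.066, 0.097 or 0.11. Mtf2 differed by 0.10 (adjusted p = 0.037, limma), and was not called without clone 1 replicate 2 (0.059), clone 1 replicate 3 (0.12), clone 19 replicate 1 (0.088), clone 19 replicate 3 (0.12), parental replicate 1 (0.053) or parental replicate 2 (0.051). Phf19 differed by -0.28 (adjusted p = 0.026, limma; -0.456 with a pseudocount of 0.1), and with clone 1 replicate 2, clone 19 replicate 1 or clone 19 replicate 3 left out the adjusted p was 0.095, 0.051 or 0.090. The Ezh1 difference of 0.13 was not called (adjusted p = 0.096, limma), and it was called at 0.18 (adjusted p = 0.043) once clone 19 replicate 2 was left out.

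Genes near some members in the genome moved the same way as the member, and those near Ezh1 and Aebp2 did not. No share over all tested genes is given for this. The median difference of the 50 nearest tested genes was -0.43 in clone 1 and -0.23 in clone 19 around Phf1, and -0.31 in each clone around Phf19. With these medians subtracted, Phf1 was lower by less in clone 1 (-0.37 ± 0.05, adjusted p = 4.0e-05, limma) while its clone 19 value of -0.11 ± 0.05 did not pass (adjusted p = 0.066, limma). Phf19 was called in both (-0.86 ± 0.09 and -1.14 ± 0.09, adjusted p = 7.8e-06 and 8.2e-07, limma). Around Ezh1 the neighbours were higher (0.25 and 0.14), and its fall was then larger, at -0.65 ± 0.06 in clone 1 and -0.41 ± 0.06 in clone 19. Aebp2 hardly moved (-0.48 and -0.44). The neighbours of Ezh2 were higher by 0.11 and 0.12, and with them subtracted Ezh2 was called in neither clone (0.04 and 0.00, adjusted p = 0.19 and 1.0, limma). Eed in clone 1 (0.03, adjusted p = 0.46), Mtf2 in clone 1 (0.02, adjusted p = 0.72) and Jarid2 in clone 19 (0.07, adjusted p = 0.36) lost their calls as well, and Mtf2 in clone 19 gained one (0.11, adjusted p = 0.025).

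**Figure D4:**
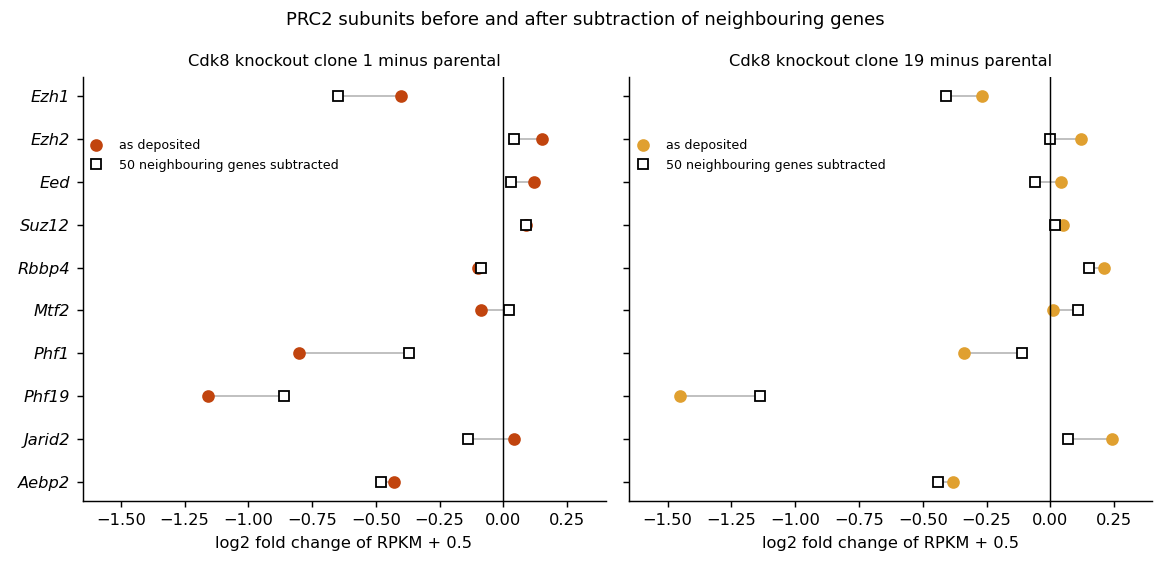
Log2 fold change of each PRC2 gene against the parental line in clone 1 and clone 19, as deposited (filled circles) and after subtraction of the median of the 50 nearest tested genes (open squares). Phf19, Aebp2 and Ezh1 stay below 0 in both clones, Phf1 moves to -0.37 and -0.11, and Ezh2 moves to 0.04 and 0.00.

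Some members overlap another protein-coding gene on the opposite strand, and whether the counting used strand is not given in the sources used here. If it did not, reads from exons that such a pair shares cannot be told apart. Overlap was taken from whole gene spans, so whether exons overlap was not examined. Cuta, which overlaps Phf1, averaged 27.1 ± 0.624 RPKM in clone 1, 34.1 ± 2.11 RPKM in clone 19 and 41.7 ± 2.12 RPKM in the parental line (-0.61 and -0.29 on the log2 scale, with adjusted p = 4.4e-07 and 2.1e-04 by limma). Cuta fell in both clones, as Phf1 did, and its part in the Phf1 values was not tested. Sync, which overlaps Rbbp4, averaged 3.44 ± 0.259 RPKM in clone 1, 4.65 ± 0.292 RPKM in clone 19 and 4.18 ± 0.290 RPKM in the parental line, far below Rbbp4. Its log2 fold changes had the signs of Rbbp4 (-0.25 and 0.14, adjusted p = 0.0058 and 0.088, limma). Tmed5, which overlaps Mtf2, averaged 43.5 ± 1.5 RPKM in clone 1, 38.4 ± 0.897 RPKM in clone 19 and 40.2 ± 1.18 RPKM in the parental line, above Mtf2. Its log2 fold changes had signs opposite to those of Mtf2 (0.11 and -0.07, adjusted p = 0.008 and 0.079, limma). The part of Sync and Tmed5 in the values of Rbbp4 and Mtf2 was not tested. Noncoding genes or pseudogenes overlap Ezh2, Eed, Suz12, Jarid2 and Phf19 on the opposite strand. On the same strand, Gm45120 overlaps Eed and Mir6968 overlaps Phf1. The annotation (GENCODE M21) holds no overlapping gene for Ezh1 or Aebp2.

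The gene patterns most like that of Phf19 over the 9 libraries, by the root mean square difference of centred log2 values, were Macroh2a2 (0.08), Six3 (0.10) and Chst11 (0.10). Macroh2a2, a histone variant, averaged 6.05 RPKM in clone 1, 4.48 RPKM in clone 19 and 12.3 RPKM in the parental line. Six3, a homeobox gene that also passed the filter through the parental line alone, averaged 0.303, 0.156 and 1.22 RPKM in the same groups, and Chst11, a chondroitin sulfotransferase, 2.69, 1.91 and 6.33 RPKM.

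Of 5 further PRC2 subunits, 4 were tested. The Lcor locus encodes the LCOR corepressor and, as another isoform, the PRC2 partner PALI1, and its gene-level RPKM does not separate them. Lcor as a whole rose in both clones (2.21 ± 0.194 RPKM in clone 1, 2.13 ± 0.142 RPKM in clone 19 and 1.48 ± 0.0454 RPKM in the parental line; 0.45 and 0.41, adjusted p = 1.6e-04 and 3.5e-04, limma). Epop, a partner of the Polycomb-like form, averaged 13.0 ± 0.974, 11.3 ± 0.882 and 13.0 ± 0.248 RPKM and fell in clone 19 (-0.20, adjusted p = 0.013, limma; -0.00 and adjusted p = 0.99 in clone 1). Lcorl, the relative of Lcor, averaged 2.04 ± 0.105, 1.71 ± 0.0563 and 1.99 ± 0.181 RPKM and fell in clone 19 (-0.17, adjusted p = 0.046, limma; 0.03 and adjusted p = 0.69 in clone 1). Ezhip, which encodes an inhibitor of PRC2, was listed at 0 in all clone 19 and parental libraries and reached 0.0195 RPKM in clone 1. Of the H3K27 demethylases, Kdm6a rose to 7.07 ± 0.118 RPKM in clone 1 and 6.77 ± 0.293 RPKM in clone 19, against 5.77 ± 0.304 RPKM in the parental line (0.27 and 0.21, adjusted p = 3.0e-04 and 0.0019, limma). Neither clone passed the test for Kdm6b (log2 fold changes -0.04 and -0.05, adjusted p = 0.37 and 0.31, limma).

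Other chromatin regulators gave calls in both directions, except 2 short lists whose few calls were all lower. For these and the following lists, 39.8% of all tested genes were called higher and 32.6% lower in clone 1. In clone 19 the shares were 36.7% and 32.3%. PRC1, of which only some forms read H3K27me3, had 21 tested subunits, and the list mixes those forms. Calls in clone 1 numbered 6 higher and 7 lower, and in clone 19 they numbered 6 higher and 8 lower (median log2 fold changes -0.06 and 0.00). Pcgf5 rose (0.76 and 0.83) and Bmi1, a ring-finger partner like Pcgf5, fell (-0.41 and -0.37). Of 10 SWI/SNF remodeler subunits, which oppose Polycomb, clone 1 had 4 called higher and 3 lower, and clone 19 had 3 higher and 4 lower (medians 0.04 and 0.06), with Smarca2 (0.51 and 0.46) and Arid1b (0.42 and 0.32) higher and Smarcb1 lower (-0.38 and -0.35). Of 9 H3K36 and H3K4 methyltransferases none was called higher and 3 were called lower in each clone (medians 0.08 and -0.11), among them Nsd3 (-0.27 and -0.31) and Kmt2b (-0.15 and -0.12). Several of the 9 spread widely over the clone 1 libraries, with replicate 1 highest, so a difference was harder to call for them. Of 3 tested subunits of the PR-DUB deubiquitinase, 1 fell in each clone, Bap1 (-0.15 and -0.11).

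Because Ezh2 transcription follows the cell cycle, E2F and proliferation genes were set beside it. Of 11 E2F and RB family genes, calls in clone 1 were 3 higher and 5 lower, and in clone 19 they were 3 higher and 4 lower (medians -0.05 and 0.05). E2f1, an activator, fell (12.1 ± 0.525 RPKM in clone 1, 14.7 ± 0.345 RPKM in clone 19 and 19.4 ± 0.501 RPKM in the parental line; -0.66 and -0.39), E2f7, a repressor, fell (-0.26 and -0.39), and E2f5 rose (0.38 and 0.36). Of 28 proliferation genes, 14 were called higher and 12 lower in clone 1, with 11 each way in clone 19 (medians 0.04 and -0.02), with Rrm2 (0.66 and 0.63) and Aurka (0.39 and 0.22) higher and Ccne1 lower (-0.57 and -0.75). Their summed level ran from 1900 to 1920 RPKM in clone 1, 1880 to 1890 RPKM in clone 19 and 1790 to 1810 RPKM in the parental line, and its part in the rise of Ezh2 was not tested.

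Genes that PRC2 is known to hold silent in other cells also went both ways among those expressed enough to be tested, which leaves out the most silent ones. No chromatin data are analysed here, so whether PRC2 occupied them in these cells was not measured. Of 39 listed Hox genes 29 were tested; clone 1 had 7 called higher and 11 lower, and clone 19 had 7 higher and 13 lower (medians -0.04 and -0.14). Hoxb9 fell to 2.01 ± 0.124 RPKM in clone 1 and 3.95 ± 0.166 RPKM in clone 19, against 8.05 ± 0.186 RPKM in the parental line (-1.77 and -0.94), and Hoxb8 (-0.70 and -0.84) and Hoxb13 (-0.58 and -0.77) fell too. Hoxb8, like Phf19, reached 1 RPKM in the parental libraries alone, so passing the filter favoured a fall. Of 40 other listed targets 19 were tested; clone 1 had 9 called higher and 4 lower, and clone 19 had 6 higher and 5 lower (medians 0.02 and 0.05). Wt1 (0.97 and 0.98), which is also a mesothelial marker, Gata6 (0.84 and 0.84) and Meis2 (0.40 and 0.39) rose in both clones. Every call of these lists is from limma with Benjamini-Hochberg adjustment over all tested genes, and the genes named had adjusted p-values of at most 0.044.

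**Figure D5:**
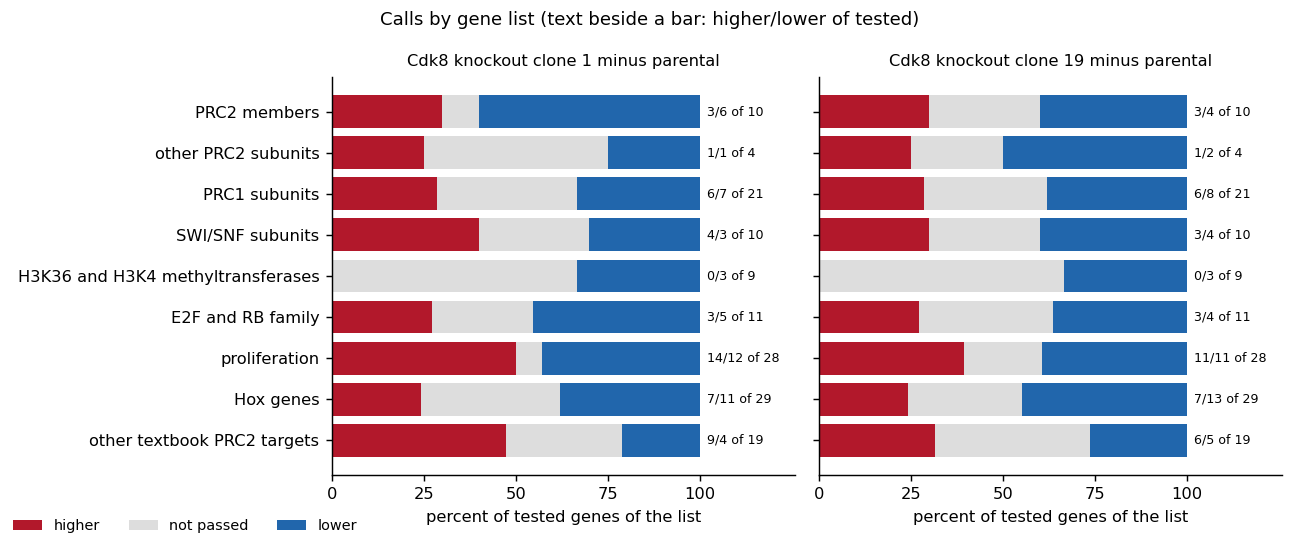
Share of the tested genes of each list called higher, not passed or called lower in clone 1 and clone 19 against the parental line, with the numbers higher, lower and tested beside each bar. The PRC2 members (3 higher and 6 lower of 10 in clone 1, 3 and 4 in clone 19) and the other lists plotted hold calls in both directions. The exception is the methyltransferases, where the only calls are 3 lower of 9 in each clone.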

How the data were processed

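Total RNA of 9 libraries was made into TruSeq libraries, per the labels' protocols. The authors deposited 1 table of RPKM values for 28059 Entrez gene IDs, each library having its own column, matched to samples through the sample IDs in the labels. GSNAP, DESeq and the build NCBIM37 are named per the submitters' processing notes; the sources used here do not give the annotation, counting rule or strand setting. IDs were named from RefSeq (GRCm38, 24998 IDs) and GENCODE M21 (16 IDs), and 3045 had no name.

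The deposited values were transformed to log2(RPKM + 0.5) and fitted with limma 3.58.1 (R 4.3.3, trended prior variance). A gene was kept when 3 or more libraries reached 1 RPKM, which left 12568 genes, and the 3 group means were estimated together from all 9 libraries. The pseudocount understates the change of low genes. Depth was estimated from genes above 0 in at most 2 libraries, taken as single reads, so no count test was run. The fit was tested on simulated data. Tables were made with Python 3.11.15. All 10 members were named, and of each other list up to 3 genes called the same way in both clones with the largest mean change. One gene so chosen is not reported here. The genes nearest in pattern were taken for Phf19, the member with the largest summed change. Rbbp7, Epop, Lcorl, Ezhip, Kdm6b, the overlapping genes and the markers Cdx2, Epcam, Krt8, Krt18, Msln, Upk1b and Upk3b were named outside this rule, with their values seen. The members, 15 gene lists and alternatives were chosen with earlier results of these data known. Alternatives were other pseudocounts, filters, scalings, weights and trend, a replicate block, fits without the group not compared, fits lacking a single library and the subtraction of 50 neighbouring genes.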

Additional observations from a re-analysis of the deposited data

Results flagged for a closer look

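The difference between the clones passed the test for 6 members: Rbbp4 (clone 19 minus clone 1, log2 fold change 0.32), Phf1 (0.46), Jarid2 (0.20), Mtf2 (0.10), Phf19 (-0.28) and Eed (-0.08), by limma with Benjamini-Hochberg adjustment. Of all tested genes 43.0% were called between the clones. Rbbp4 is the member whose calls against the parental line had opposite signs. Calls of Jarid2, Mtf2, Phf19 and Eed ended when single libraries were left out, and also with only the groups compared in the fit.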

How the results depend on the processing

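Of the calls against the parental line, those of Ezh1, Rbbp4, Aebp2 and Phf19 in both clones and of Phf1 in clone 1 held in all alternatives that could be run; Phf19 and Jarid2 gave no value with a filter at 3 RPKM. With neighbouring genes subtracted, 1 member was called higher in clone 1 instead of 3. Of 594 refits of the members, 535 kept their call and direction, 49 lost a call, 5 gained one and 5 turned sign. Those were Eed in clone 19 (-0.0619), Jarid2 in clone 1 (-0.143) and Mtf2 in clone 1 (0.0162) with neighbouring genes subtracted, and Mtf2 in clone 19 with median-ratio scaling (-0.00419) or without clone 19 replicate 3 (-0.00803, in a range up to 0.0393 without single libraries); the cause was not tested. E2f5 in clone 19 turned to -0.000912 with neighbouring genes subtracted. Between the clones, where 4 members were called higher and 2 lower, the higher count was 2 with only the groups compared. The lower count was 1 under quantile normalization, median-ratio scaling, no trend, no filter or the 3 RPKM filter, and 0 with only the groups compared. Without single libraries the higher count ran from 2 to 5 and the lower count from 0 to 1. Replicate numbers are not stated to pair the libraries. Deviations of same-numbered libraries correlated at -0.0353 to 0.123, and 3 of 9 libraries matched their own number best in both other groups. These values do not settle whether the libraries were paired. With a replicate block the log2 ratio of Ezh2 to Ezh1 was 0.55 and 0.387 higher. The exact sign-flip p of 0.25 is the smallest that 3 pairs allow, so that test could not have passed. With the block the members' counts against the parental line were 3 higher and 5 lower in clone 1 and 3 and 4 in clone 19, and between the clones 2 and 1. Depth limits Phf19 most.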
